A study of Mus musculus with 11 samples.

Results

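The 31 genes described here build cholesterol and fatty acids or control their synthesis, and they were chosen by name, as members of these pathways, from the 52550 genes of the count table. They comprise 7 enzymes of the mevalonate arm, 11 enzymes of the sterol arm, 5 regulators of the SREBP system, the sterol carrier Stard4 and 7 lipogenic enzymes. Not every gene of these pathways is among them. RNA of colonic epithelial cells was sequenced from RAG1 KO mice of the strain C57BL/6, which lack the recombinase needed to form mature T and B cells. In 5 mice the diet contained 7% cellulose as its only fiber (CD), and in 6 mice it was free of fiber (FFD). All 11 mice were fed for 4 weeks and then drank 1.5% dextran sulfate sodium (DSS), which injures the colonic epithelium, for 5 days, so no group is without DSS, without RAG1 KO or on ordinary chow. Sex and age are not given in the labels. Every CD sample carries the number 1 in its label and every FFD sample the number 2, and anything this number marks cannot be told apart from the diet.

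Cholesterol is built from acetyl-CoA, which the mevalonate arm turns into farnesyl diphosphate and the sterol arm into squalene, lanosterol and cholesterol. The same acetyl-CoA, made from citrate in the cytosol, feeds the lipogenic enzymes, which build palmitate and then lengthen and desaturate it. Transcription of both branches is driven by the SREBP factors, which Scap escorts from the endoplasmic reticulum to the Golgi for cleavage unless sterols and the Insig proteins hold the complex back. SREBP-1c, a product of Srebf1, is best known for lipogenic targets and SREBP-2, the product of Srebf2, for sterol targets. In the intestine, dividing crypt cells use newly made lipid for membranes, while mature surface cells also take lipid up and pass it on.

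The libraries held 10374154 to 28588266 counts, with FFD mouse 4 lowest and every CD mouse at 20853535 or more. Of the 52550 genes, 15044 passed the expression filter and were tested with edgeR's quasi-likelihood test, and a Benjamini-Hochberg adjusted p under 0.05 was called a change. CPM denotes counts per 1e6 of the TMM-normalized library total, and a log2 fold change above 0 means a higher level in FFD mice. Of the disrupted gene Rag1, 8 to 40 counts were found per mouse (0.806 to 1.52 CPM), and whether they lie outside the disrupted part of the gene was not tested. The epithelial label was checked on 8 epithelial genes (such as Epcam and Krt8), of which 7 were higher in FFD mice and whose summed level was 11290 to 13620 CPM in CD mice and 13050 to 17180 CPM in FFD mice. Defining genes of adipocytes, cells rich in lipogenic enzymes, were near 0, with 1 count of Adipoq and 1 count of Fabp4 over all 11 mice. The summed level of all 10 adipocyte genes was 80.5 to 96.1 CPM with CD and 84.3 to 98.6 CPM with FFD, most of it Pparg (mean 75.0 and 75.7 CPM), which epithelial cells of the colon also express, and only Cidec, a lipid droplet protein, passed the test among the 4 that were tested (log2 fold change 1.12, edgeR adjusted p = 0.00719). Of the sebaceous genes on a list of 10 squamous and sebaceous genes, Mc5r had 0 and Awat1 3 counts in all mice. That list summed to 1.68 to 3.10 CPM with CD and 1.72 to 3.44 CPM with FFD, and of its 3 tested genes Krt13 was higher with FFD.

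All 31 genes passed the filter. In FFD mice 11 were lower and 3 were higher, while 17 did not pass the test. Among all 15044 genes tested, 18.6% were lower, 18.2% higher and 36.8% changed in either direction. The median log2 fold change of the 31 genes was -0.15, and that of all genes tested was -0.03. The genes did not move as a block. Of the lipogenic enzymes 5 of 7 were lower and 1 was higher, with a median log2 fold change of -0.33. In the mevalonate arm 3 of 7 were lower and none of the others passed, with a median of -0.29. The sterol arm, by contrast, had 1 of 11 lower and 1 higher, with a median of 0.03. In 7 genes the values of all FFD mice lay below those of all CD mice, against 9.59% of all genes tested, and in 1 gene they lay above, against 8.91%. Without TMM normalization the median of all genes fell by 0.152, and 16 of the 31 genes were then lower and 2 higher. Of all 15044 genes tested, 4863 were lower and 1636 higher under that setting.

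**Figure D1:**
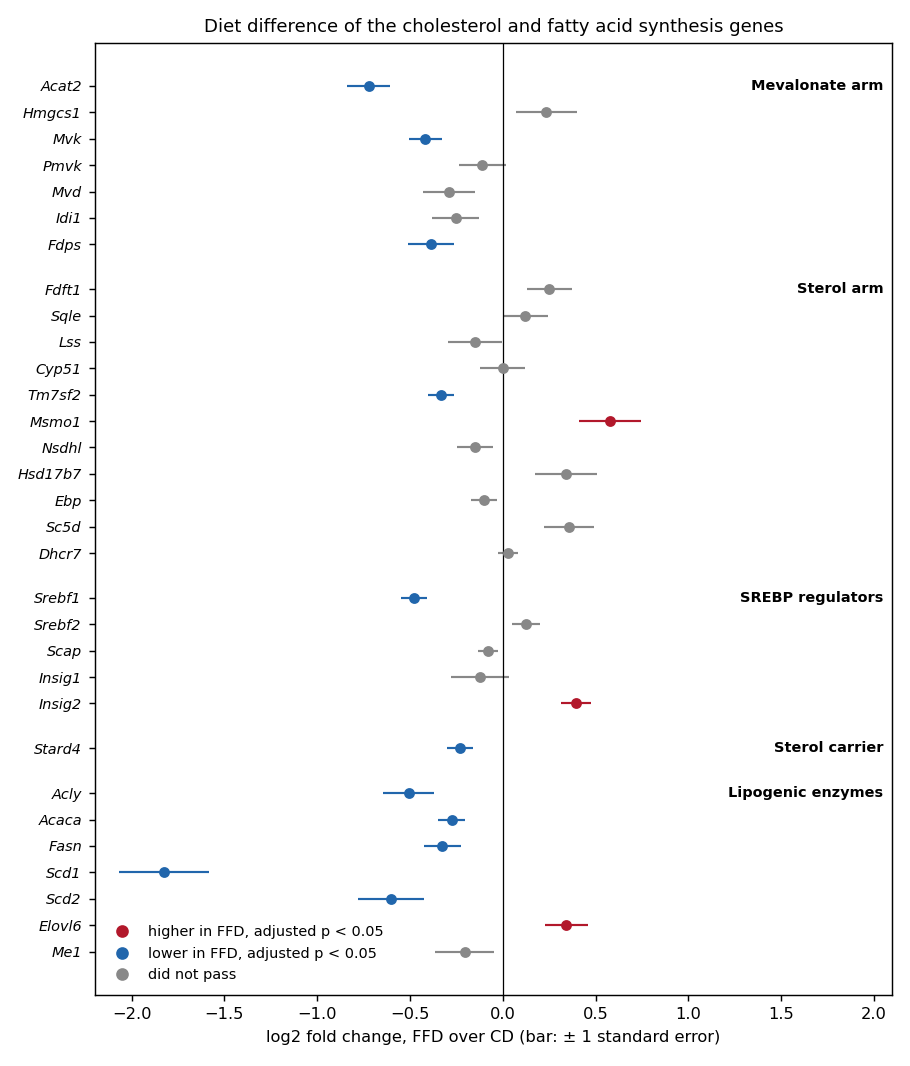
Log2 fold change of each of the 31 genes, FFD over CD (x axis), ordered by role from top to bottom; points are edgeR estimates, bars are ± 1 standard error, and colour marks the 3 genes higher, the 11 lower and the 17 that did not pass the test at an adjusted p of 0.05. Scd1 lies farthest to the left, and the sterol arm is spread around 0.

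The promoters of 4 genes are shown because their genes differ in direction while all are enzymes that the SREBP system is known to control. Fasn and Mvk were lower in FFD mice, Msmo1 was higher and Hmgcs1 did not pass the test. Each run covers 250 bases before to 50 bases after the RefSeq start (build GRCm38.p6), 5′ to 3′ on the strand of the gene. Capitals mark CCAAT or its reverse ATTGG, the box bound by the factor NF-Y, and in Hmgcs1 also TCACCCCAC, a match to the sterol element TCACNCCAC. The Fasn window is chr11:120824498-120824797 (minus strand), the Mvk window chr5:114444019-114444318 (plus strand), the Msmo1 window chr8:64733529-64733828 (minus strand) and the Hmgcs1 window chr13:119690101-119690400 (plus strand).
Fasn: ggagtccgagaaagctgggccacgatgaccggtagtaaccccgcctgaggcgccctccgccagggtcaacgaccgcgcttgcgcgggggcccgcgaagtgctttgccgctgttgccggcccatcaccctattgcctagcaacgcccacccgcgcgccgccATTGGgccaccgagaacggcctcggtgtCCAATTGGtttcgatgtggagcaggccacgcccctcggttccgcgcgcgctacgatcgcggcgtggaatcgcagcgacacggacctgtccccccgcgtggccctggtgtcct
Mvk: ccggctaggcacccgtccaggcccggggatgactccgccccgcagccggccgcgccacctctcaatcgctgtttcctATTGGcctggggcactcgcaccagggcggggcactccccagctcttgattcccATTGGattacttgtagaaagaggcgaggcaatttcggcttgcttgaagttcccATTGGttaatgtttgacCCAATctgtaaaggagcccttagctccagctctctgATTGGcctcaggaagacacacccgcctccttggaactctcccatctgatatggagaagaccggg
Msmo1: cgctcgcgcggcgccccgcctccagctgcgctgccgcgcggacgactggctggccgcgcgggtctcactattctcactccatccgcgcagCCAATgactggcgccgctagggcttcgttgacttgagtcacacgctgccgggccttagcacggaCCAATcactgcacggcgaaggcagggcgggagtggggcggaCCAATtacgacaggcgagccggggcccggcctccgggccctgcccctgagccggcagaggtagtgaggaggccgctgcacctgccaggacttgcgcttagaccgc
Hmgcs1: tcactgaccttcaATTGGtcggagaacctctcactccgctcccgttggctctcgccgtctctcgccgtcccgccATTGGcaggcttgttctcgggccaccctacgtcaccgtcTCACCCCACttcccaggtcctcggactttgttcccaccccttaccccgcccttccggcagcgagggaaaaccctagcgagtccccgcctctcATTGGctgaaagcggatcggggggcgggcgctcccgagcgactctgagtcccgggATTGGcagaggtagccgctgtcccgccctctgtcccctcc

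RefSeq promoters were found for 25 of the 31 genes, but not for Fdps, Fdft1, Sqle, Stard4, Scd1 and Scd2. Both strands were searched for exact matches only, so variants of an element and sites outside the window were not counted. TCACNCCAC (reverse GTGGNGTGA) was present in 1 of the 25, Hmgcs1, where it starts 137 bases before the start of the gene, and in 1.44% of 27025 genes with a promoter in the table. CCAAT (reverse ATTGG) was present in 21 of the 25 promoters, against 41.1% of all genes, counting a gene with several starts once if any of its windows matched. The share over all genes includes genes not expressed in these samples, whereas all 25 were expressed, so the 2 sets are unlike. CCAAT was chosen after the data were examined, and no match of the box overlaps the sterol element in Hmgcs1. The box was present in the promoters of genes lower in FFD mice, such as Fasn and Mvk, and of genes higher in FFD mice, such as Msmo1 and Insig2. Not every window of Insig2, Me1, Dhcr7, Pmvk and Srebf1 held it, and the window at the annotated start of Me1 did not. It was absent from the promoters of Acat2, which was lower, of Elovl6, which was higher, and of Scap, which did not pass. The window listed for Acaca, which was lower, did not hold it either. That window begins at base 84195188 of chromosome 11, inside the gene, which begins at 84129672. The start of the annotated Acaca gene was therefore not searched.

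Of the 31 genes Scd1 had the largest fold change, followed by Acat2 of the mevalonate arm and by Scd2. Scd1 encodes a stearoyl-CoA desaturase, which places the double bond that turns stearate into oleate (chromosome 19, 44394455 to 44407879, minus strand, GRCm38). Its level was 20.7, 21.7, 44.9, 24.4 and 26.0 CPM in CD mice 1 to 5. In FFD mice the lowest value was 3.68, the median 7.83 and the highest 10.8 CPM. The diets did not overlap, and CD mouse 3 stood above the other CD mice. The mean was 7.72 ± 2.32 CPM in FFD mice (SD, n = 6) and 27.5 ± 9.94 CPM in CD mice (SD, n = 5). The log2 fold change of the edgeR fit was -1.83 ± 0.244 (SE, edgeR adjusted p = 8.63e-04), which corresponds to a ratio of 0.282. By p-value Scd1 ranked 71 among the 15044 genes tested.

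Scd2, a neighbouring desaturase gene (chromosome 19, 44293674 to 44306864, plus strand), was much more abundant and changed less. Its values were 774, 751, 1261, 813 and 1148 CPM in CD mice 1 to 5, and 379, 670 and 743 CPM as the lowest, median and highest FFD value. The highest FFD mouse was just below the lowest CD mouse, CD mice 3 and 5 lay well above the other CD mice, and FFD mouse 6 was the lowest of all. The log2 fold change was -0.60 ± 0.179 (SE, edgeR adjusted p = 0.0189). It no longer passed without CD mouse 3 (-0.47, adjusted p = 0.0649) or without CD mouse 5 (-0.51, adjusted p = 0.0533). As a measure of reads that could be assigned to several genes, 3.74% of the 59-base windows of Scd1 and 2.84% of those of Scd2 also occur in transcripts of other genes.

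The enzymes that supply and build palmitate were lower as well. Acly, which cleaves citrate into cytosolic acetyl-CoA, had 379, 380, 403, 351 and 432 CPM in CD mice and 194, 275 and 346 CPM as the lowest, median and highest FFD value. Every FFD mouse was below every CD mouse, although the highest FFD value came close to the lowest CD value. Its log2 fold change was -0.51 ± 0.137 (SE, edgeR adjusted p = 0.0122). Acaca, the acetyl-CoA carboxylase that makes malonyl-CoA, was measured at 71.9, 72.0, 85.8, 75.2 and 78.0 CPM in CD mice. Its FFD values ran from 54.0 through a median of 64.7 to 69.5 CPM. Again the diets did not overlap, with a log2 fold change of -0.28 ± 0.0725 (SE, edgeR adjusted p = 0.0106), and 28.96% of the 59-base windows of Acaca are shared with other transcripts.

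Fasn, the synthase that assembles palmitate, was at 203 to 299 CPM in CD mice and 167 to 212 CPM in FFD mice. CD mouse 4 lay within the range of the FFD mice, and CD mouse 5 was the highest. Fasn was lower by a log2 fold change of -0.33 ± 0.0993 (SE, edgeR adjusted p = 0.0211), but not past the threshold without CD mouse 3 (adjusted p = 0.0626), without CD mouse 5 (-0.22, adjusted p = 0.0654) or with the replicate number as a block (adjusted p = 0.0503). Me1, the malic enzyme that supplies NADPH for synthesis, did not pass the test (20.7 ± 2.66 CPM in CD, 17.8 ± 4.31 CPM in FFD, edgeR adjusted p = 0.331). Its lowest value, 9.97 CPM, came from FFD mouse 4, the library with the fewest counts. In the opposite direction, Elovl6, which lengthens palmitate to stearate, rose from 69.3 ± 7.12 to 87.7 ± 15.2 CPM (log2 fold change 0.34 ± 0.116, SE, edgeR adjusted p = 0.0345). The diets overlapped, and the call was lost when CD mouse 2 or 4 or FFD mouse 2, 5 or 6 was left out (adjusted p = 0.0579 to 0.0849), without TMM (0.155) and with the replicate block (0.108).

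Summed over the 7 lipogenic genes, the level was 1526 to 2149 CPM in CD mice and 932 to 1411 CPM in FFD mice, with FFD mouse 6 lowest. The diets did not overlap in this sum, in which Scd2 is the largest term. Without CD mouse 3, and also without CD mouse 5, 3 instead of 5 of the lipogenic genes passed as lower. In bulk RNA, fewer cells of a type and less RNA per cell cannot be told apart. Genes of dividing cells moved the same way. Of 20 such genes 17 were lower and none higher, against 18.6% lower and 18.2% higher among all genes tested. The 3 that did not pass were Mki67, Top2a and Ccnb1 (log2 fold changes -0.50, -0.58 and -0.63, edgeR adjusted p = 0.0825, 0.0548 and 0.0598). The summed level of the 20 genes was 1544 to 2106 CPM in CD mice and 623 to 1451 CPM in FFD mice, FFD mouse 6 again being lowest. Of 14 genes of mature colonocytes 9 were higher, and the summed level was 11280 to 15830 CPM with CD and 18680 to 32390 CPM with FFD. The largest terms of this sum were Lypd8, Ceacam1 and Muc13 (FFD means 8904, 6405 and 4580 CPM). The other 5 genes did not pass, with log2 fold changes of -0.007 for Aqp8, 0.07 for Car1, 0.40 for Tmigd1, 0.55 for Slc20a1 and 0.61 for Guca2a. Of 8 neutrophil genes, 4 were tested and 2 were higher, with 24.1 to 65.4 CPM with CD and 66.9 to 225 CPM with FFD. Nearly all of this sum was Ly6g (mean 33.5 CPM with CD and 153 CPM with FFD), whereas S100a8, the other gene that was higher, and S100a9 had means of 2.59 CPM or less and Mpo and Elane 9 and 7 counts in all mice. Of 10 macrophage genes 2, C1qb and Mrc1, were higher, near the share of 18.2% over all genes tested. The list summed to 16.8 to 23.4 CPM with CD and 21.5 to 34.0 CPM with FFD. Its largest term was Lyz2 (mean 7.83 CPM with CD and 10.6 CPM with FFD), which did not pass. Mrc1 had means of 1.40 CPM with CD and 4.11 CPM with FFD. The list of 9 T and B cell genes summed to 1.64 to 2.41 CPM with CD and 1.61 to 2.46 CPM with FFD, and that of 10 stromal genes to 1.91 to 4.14 and 1.51 to 4.15 CPM. The part of these cell types in the differences of the 31 genes was not tested.

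**Figure D2:**
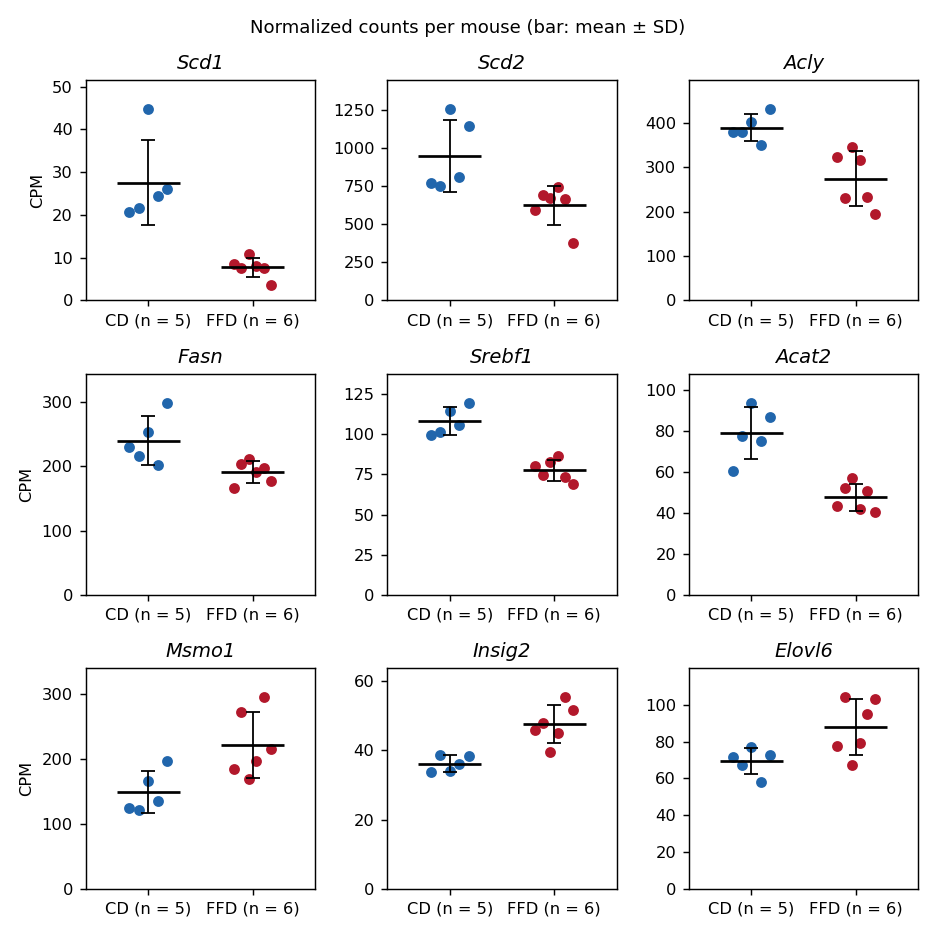
CPM of 9 of the 14 genes that passed the test (y axes, each starting at 0) in each of the 5 CD and 6 FFD mice; points are mice, the long line is the mean and the bar ± SD. Scd1, Scd2, Acly, Srebf1 and Acat2 have every FFD mouse below every CD mouse and Insig2 every FFD mouse above, whereas the diets overlap in Fasn, Msmo1 and Elovl6.

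The regulators differed in direction. Srebf1, which encodes SREBP-1 (chromosome 11, 60199089 to 60222581, minus strand), was read at 99.8, 101, 115, 106 and 120 CPM in CD mice 1 to 5. Its FFD values were 69.0 at the lowest, 77.2 at the median and 86.6 CPM at the highest. All FFD mice were below all CD mice, with a log2 fold change of -0.48 ± 0.0720 (SE, edgeR adjusted p = 0.00112), and the SREBP-1a and SREBP-1c transcripts cannot be separated in counts per gene. Insig2, one of the proteins that retain the Scap complex, showed the reverse pattern. It had 33.7, 38.7, 33.9, 36.2 and 38.4 CPM in CD mice and 39.7, 46.8 and 55.4 CPM as the lowest, median and highest FFD value. No FFD mouse fell into the CD range, and the log2 fold change was 0.39 ± 0.0824 (SE, edgeR adjusted p = 0.00349).

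Its relative Insig1, itself a known SREBP target, did not pass (96.4 ± 24.3 CPM in CD, 88.4 ± 14.3 CPM in FFD, edgeR adjusted p = 0.561). Srebf2 (log2 fold change 0.12 ± 0.0738) and Scap (-0.08 ± 0.0541) did not pass either, at adjusted p = 0.204 and 0.262. A p above the threshold does not show that these 3 genes were equal in the diets. Stard4, a carrier that moves cholesterol between membranes, was lower in FFD mice. Its values were 204, 188, 229, 196 and 203 CPM in CD mice and 160, 174 and 193 CPM as the lowest, median and highest FFD value. Only FFD mouse 3 reached into the CD range, and the log2 fold change was -0.23 ± 0.0698 (SE, edgeR adjusted p = 0.0202). The call was lost without CD mouse 3 (-0.18, adjusted p = 0.0749), without the expression filter (0.0644) and with the replicate block (0.054).

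In the mevalonate arm the difference was largest at its entry. Acat2, the thiolase that joins acetyl-CoA units in the cytosol (chromosome 17, 12942890 to 12960747, minus strand), had 60.6, 77.7, 93.9, 75.2 and 87.1 CPM in CD mice. The lowest, median and highest FFD values were 40.6, 47.0 and 57.3 CPM. The diets did not overlap, and the log2 fold change was -0.72 ± 0.116 (SE, edgeR adjusted p = 0.0013). Of its 59-base windows 37.2% are shared with other transcripts, chiefly those of Acat3, which had 102 counts in all mice against 16487 of Acat2, and 10.5% with Tcp1, which itself was lower in FFD mice (log2 fold change -0.44, edgeR adjusted p = 0.00462).

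Mvk, the mevalonate kinase, was at 32.9, 43.8, 46.4, 45.1 and 48.8 CPM in CD mice and at 30.3, 32.6 and 34.1 CPM as the lowest, median and highest FFD value. Only CD mouse 1 lay within the FFD range, and the log2 fold change was -0.42 ± 0.0875 (SE, edgeR adjusted p = 0.00352). Fdps, which makes farnesyl diphosphate, had 138, 196, 225, 229 and 246 CPM in CD mice and 138, 157 and 173 CPM as the lowest, median and highest FFD value. CD mouse 1 again lay among the FFD mice and the 4 others above them. Its log2 fold change of -0.39 ± 0.124 (SE, edgeR adjusted p = 0.0267) did not pass when CD mouse 3, 4 or 5 or FFD mouse 4 was left out (adjusted p = 0.0563 to 0.0768) or with the replicate block (0.0674), and 25.1% of its windows are shared. The enzymes between them did not pass, with log2 fold changes of -0.11 ± 0.127 for the kinase gene Pmvk, -0.29 ± 0.141 for the decarboxylase gene Mvd and -0.25 ± 0.127 for the isomerase gene Idi1. Hmgcs1, the HMG-CoA synthase next after Acat2, had the only estimate above 0 in this arm (0.24 ± 0.166, edgeR adjusted p = 0.283).

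In the sterol arm 2 enzymes passed, in opposite directions. Msmo1, the methylsterol oxidase that removes methyl groups after lanosterol (chromosome 8, 64718139 to 64733792, minus strand), had 125, 122, 166, 136 and 197 CPM in CD mice. Its lowest, median and highest FFD values were 169, 206 and 296 CPM. CD mouse 5 lay within the FFD range and the 4 other CD mice below it, with a log2 fold change of 0.58 ± 0.165 (SE, edgeR adjusted p = 0.0158). Tm7sf2, which encodes a sterol reductase of the step before, had 18.4, 21.4, 20.9, 20.8 and 18.6 CPM in CD mice and 14.6, 16.2 and 16.6 CPM as the lowest, median and highest FFD value. Here all FFD mice were below all CD mice (log2 fold change -0.33 ± 0.0704, SE, edgeR adjusted p = 0.00361). Lbr, whose protein carries the same reductase activity besides its role in the nuclear envelope, was lower too, falling from 126 ± 12.7 to 82.8 ± 15.6 CPM (log2 fold change -0.61, edgeR adjusted p = 0.00315).

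The other 9 sterol enzymes did not pass. The largest of these estimates were 0.36 ± 0.136 for the desaturase gene Sc5d (edgeR adjusted p = 0.0539) and 0.34 ± 0.166 for the ketoreductase gene Hsd17b7 (0.124). Sc5d passed under 8 of 20 alternative settings, including RLE size factors and DESeq2. Fdft1, the squalene synthase, was at 0.25 ± 0.122 (adjusted p = 0.123), and 17.0% of its windows are shared with Ctsb on the opposite strand, which was itself higher with FFD (log2 fold change 0.32). Sqle, the squalene epoxidase, and Dhcr7, the last reductase of the arm, were at 0.12 ± 0.120 and 0.03 ± 0.0540, and both turned negative without TMM. Lss, Nsdhl and Ebp were at -0.15, -0.15 and -0.10 on the log2 scale. The lanosterol demethylase gene Cyp51 had the estimate nearest to 0, at 200.1 ± 39.2 CPM with CD and 199.9 ± 24.1 CPM with FFD. Summed over the 11 sterol genes, the level was 916 to 1293 CPM in CD mice and 1043 to 1395 CPM in FFD mice, so that the diets overlapped.

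Mice of 1 diet differed from each other over many of the genes at once. On a log2 scale relative to the CD mean, CD mouse 3 had 2 and CD mouse 5 had 4 of the 31 genes below that mean. In CD mice 1, 2 and 4 the numbers were 27, 25 and 24. The CD mean includes every CD mouse, so numbers of this kind are not independent between CD mice. In the mevalonate arm 7 of 7 genes were below the CD mean in CD mouse 1 and 0 of 7 in CD mice 3 and 5. In the sterol arm 11 of 11 were below it in CD mouse 1, and 0 and 1 of 11 in CD mice 3 and 5. Among FFD mice, FFD mice 2 and 5 had the highest sterol medians (0.221 and 0.194), yet 6 of 7 lipogenic genes were below the CD mean in each of them. Of the 31 genes, 7 were lower without CD mouse 3 and 6 were higher without CD mouse 5. Over all genes tested, the number lower fell from 2792 to 1983 without CD mouse 3. The number higher was 2698 without CD mouse 5, against 2740 with all mice. Whether the high values of these 2 mice account for the shifts among the 31 genes was not tested. The 3 genes that passed as higher in addition without CD mouse 5 were Sc5d, Hsd17b7 and Fdft1 (log2 fold changes 0.44, 0.47 and 0.34).

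**Figure D3:**
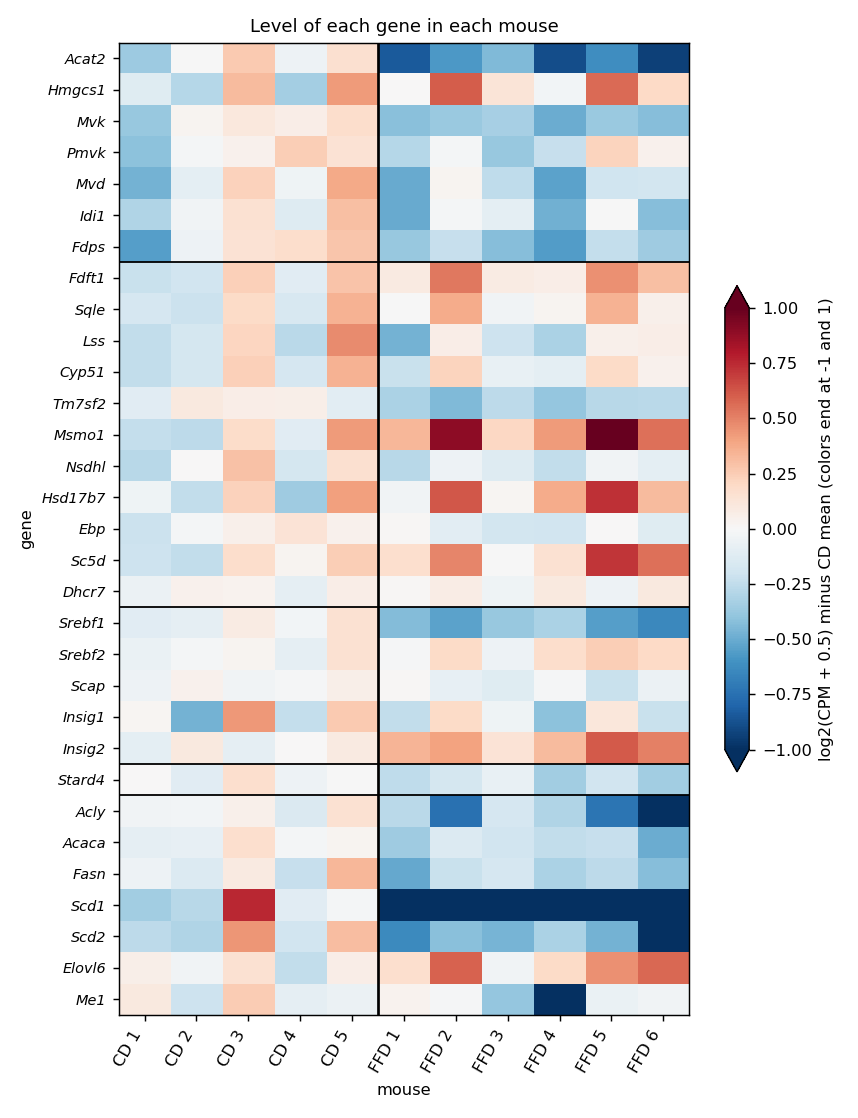
Level of the 31 genes (rows, ordered by role) in the 5 CD and 6 FFD mice (columns), as log2(CPM + 0.5) minus the mean of the CD mice; red is above and blue below that mean, and colours end at -1 and 1. CD mice 3 and 5 are red and CD mouse 1 is blue in most rows, and Scd1 is blue in all 6 FFD mice.

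Levels between genes were compared as CPM per kilobase of exon, with all annotated exons of a gene joined. This length (17074 bases for Acaca) can exceed that of the transcripts present, so the ranks depend in part on the annotation. Scd2 ranked highest in both diets (174 in CD, 114 in FFD), followed in CD mice by Acly (73.7), Idi1 (66.9) and Hmgcs1 (53.1). Scd1 was at 5.63 per kilobase in CD mice, rank 28 of 31, and at 1.58 in FFD mice, the lowest of all. Acaca (4.48) and Tm7sf2 (4.55) were lowest in CD mice. The gene with the largest fold change thus had a low level, and Scd2 exceeded it in either diet. By this measure Srebf2 (37.4 in CD, 40.7 in FFD) was above Srebf1 (19.2 and 13.8) in both diets.

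**Figure D4:**
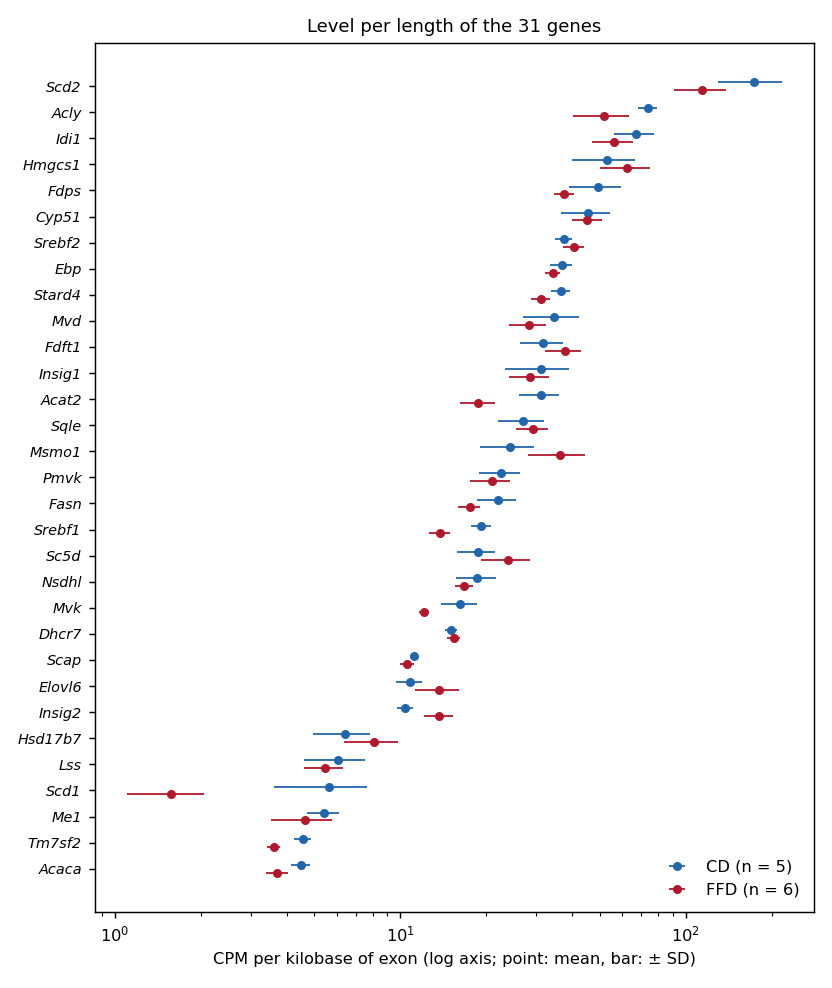
Mean level of the 31 genes per kilobase of exon (x axis, log scale, CPM per kilobase) in CD mice (n = 5) and FFD mice (n = 6), with bars of ± SD; genes are ordered by their level in CD mice. Scd2 is highest in both diets, and the FFD point of Scd1 lies apart at the low end.

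Of 67 further genes around these pathways, 62 were tested, and 12 were higher and 14 lower in FFD mice, with a median log2 fold change of -0.04. Among all genes tested 18.2% were higher, 18.6% lower and 36.8% changed in either direction. The counts of these genes and of their smaller lists below are to be read beside those shares, and no list was tested as a set. Among 21 tested genes of fatty acid metabolism 8 were lower and 3 higher. Fads1, the delta-5 desaturase of polyunsaturated fatty acids, fell from 38.9 ± 12.9 to 12.4 ± 5.21 CPM (log2 fold change -1.63 ± 0.283, SE, edgeR adjusted p = 0.00173), and no FFD mouse reached the CD range. Mlxipl, which encodes the carbohydrate-responsive lipogenic factor ChREBP, was lower as well (-0.78, edgeR adjusted p = 0.00207). Elovl7, an elongase of long saturated chains, rose from 109 ± 5.23 to 152 ± 14.98 CPM (0.48, edgeR adjusted p = 0.00113). Acacb, the mitochondrial counterpart of Acaca, and Oxsm, a synthase of the mitochondrial pathway, were also higher (0.73 and 0.29, adjusted p = 0.00479 and 0.0114).

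Among 14 genes for transport, cleavage and turnover of SREBP and Insig proteins, 6 were higher and 1 was lower. Erlin1, part of a complex that restrains SREBP, rose from 64.9 ± 4.62 to 86.0 ± 8.54 CPM (log2 fold change 0.41, edgeR adjusted p = 0.00226), and Sec23a, a coat protein of the vesicles that leave the endoplasmic reticulum, from 76.2 ± 5.64 to 101 ± 13.9 CPM (0.41, adjusted p = 0.00531). Of 11 genes that use isoprenoids, 2 were higher and 2 lower, with Nus1, a subunit of the dolichol synthase, at 0.46, Pdss1, of ubiquinone synthesis, at -0.25 and Rabggtb, of Rab prenylation, at -0.36 (edgeR adjusted p = 0.0052, 0.00442 and 0.00514). Of 8 tested genes of sterol electron transfer, storage and oxidation, Lbr was lower and Cyp27a1, a sterol hydroxylase, higher (0.54, edgeR adjusted p = 0.0292). Of 8 genes of the oxysterol receptors LXR and their targets, Rxrb (-0.42) and Mylip (-0.70) were lower and none was higher (edgeR adjusted p = 0.00247 and 0.00706).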

How the data were processed

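The data are 11 libraries of colonic epithelium, each from 1 mouse (5 CD, 6 FFD). Cells were shaken off with DTT and EDTA and enriched on Percoll, and the authors sequenced poly(A) RNA as single reads of 59 bases, trimmed and mapped these with the Qiagen CLC Workbench (GRCm38) and deposited raw counts of reads per gene. FastQC, R 3.5.1 and DESeq2 1.22.2 are listed in the submitters' processing notes. Not given in the sources used here are the annotation release, the use of strand and the handling of reads that map to several genes. The members and lists were chosen with earlier results of these data known.

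Counts were filtered with filterByExpr (minimum count 10, minimum total 15), normalized by TMM and tested for diet with edgeR 4.0.16 in R 4.3.3. P-values were adjusted over the 15044 genes tested. Total counts per library were 10374154 to 28588266, and TMM factors 0.893 to 1.08. Replicates of a diet were compared by chi-square (12.6 or more per degree of freedom in every pair), which exceeds sampling noise, so each library was 1 replicate. Alternatives were other size factors, no TMM, no or a stricter filter (minimum count 50), DESeq2 1.42.0, limma-voom (limma 3.58.1), a robust fit, a replicate block, each mouse left out and libraries thinned to the lowest total, the last added after the data were seen. Exon lengths, coordinates and shared 59-base windows come from GENCODE M21, in which all 31 symbols were found, and promoters from RefSeq. All 31 members were accounted for. For up to 4 members per role that passed, with the smallest p, the value of each CD mouse and the lowest, median and highest FFD value were given, and of the related lists up to 3 genes with the smallest p and up to 2 of the opposite direction were named. A gene that this rule selects is not reported here, though it remains in the counts over lists. The procedure was run on simulated counts that used the spread fitted to these data. Its recovery criterion covered only changes larger than that of any of the 31 genes, so it does not bear on smaller ones.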

Additional observations from a re-analysis of the deposited data

Results flagged for a closer look

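Scd1 in CD mouse 3 stood apart from the other CD mice, at 44.9 CPM against 26.0 CPM in the nearest one. The gap was 0.781 of the range of the 5 CD mice, above Dixon's critical value of 0.71. It was the only such value in 62 groups (31 genes in 2 diets), of which chance alone flags about 1 in 20. Without CD mouse 3 the log2 fold change of Scd1 was still past the threshold, as it was with every other mouse left out (-1.94 to -1.57).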

How the results depend on the processing

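Under all 20 alternatives Acat2, Mvk, Tm7sf2, Msmo1, Srebf1, Insig2, Acly, Acaca and Scd1 kept their direction and passed the threshold. Fdps, Stard4, Fasn, Scd2 and Elovl6 kept their direction but did not pass in all. With each mouse left out, 2 to 6 of the 31 genes were higher (6 without CD mouse 5) and 7 to 12 lower (7 without CD mouse 3), with a median of -0.191 to -0.0728. Of the lipogenic genes 0 to 1 were higher and 3 to 5 lower, of the related genes 8 to 14 higher and 14 to 16 lower, and of all genes 2281 to 3086 higher and 1983 to 2993 lower. Without TMM, 0 lipogenic genes were higher, 5 related genes higher and 29 lower, and 1636 genes higher and 4863 lower in the whole table, with a median of the 31 genes of -0.305. The estimates of Sqle (-0.0356), Dhcr7 (-0.122) and Srebf2 (-0.0324) were then below 0. Cyp51 lay so near 0 that its sign changed with other size factors (0.0167), no filter (0.00277), a strict filter (0.00738), DESeq2 (0.0166), limma-voom (0.00771), the replicate block (0.00511), thinned libraries (0.00752) and single mice left out (-0.0466 to 0.112). Lss (-0.213 to 0.00389, above 0 without CD mouse 5) and Insig1 (-0.214 to 0.00522, above 0 without CD mouse 3) changed sign only when a mouse was left out, and none of these genes passed the test under any alternative. The cause of these shifts was not tested.

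Same-numbered mice correlated at -0.283 to 0.229 in their deviations from the mean of their diet. The FFD mouse that correlated best bore the same number for CD mice 3 and 5, but another number for CD mice 1, 2 and 4. These few correlations cannot decide whether the label numbers pair the mice. With the replicate block, 2 of the 31 genes were higher and 8 lower, with 0 lipogenic genes higher and 4 lower, 6 related genes higher and 1829 genes lower in the whole table, and FFD mouse 6 was alone in its block. Among the members, Scd1 in FFD mouse 6 rests on the fewest counts (66).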
